A study of Mus musculus with 8 samples.

Results

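The genes described here are 10 genes whose proteins fill the granules or the cytosol of developing neutrophils: Mpo, Elane, Prtn3 and Ctsg of the azurophil granules, Ngp, Camp, Ltf and Lcn2 of the specific granules, and S100a8 and S100a9, which encode the subunits of calprotectin. They were chosen by name with earlier results of these arrays in view, and each was read from the probe set whose number is its Entrez gene number, which gave 10 of 10 genes out of 24011 measured. The earlier results were the low level of neutrophil and precursor genes on 2 of the arrays and their change with hepcidin, so the values below are descriptions of these arrays and support nothing by themselves. The arrays held RNA of primary macrophages grown for 7 days from total bone marrow of wild-type mice aged 8 to 10 weeks, in medium conditioned by L cells as the source of M-CSF, and seeded again for a day. The treated cells received hepcidin, the peptide hormone that makes the iron exporter ferroportin be degraded, at 10 µg/ml for 1 h (4 arrays, Hepcidin), and the controls received PBS (4 arrays, PBS). Replicate numbers 1 to 4 are used in both groups, and nothing in the labels ties a number to an animal, a culture or a day, or says whether marrow of several mice was pooled. The p-values therefore cover the spread between these 8 samples alone, part of which may be technical.

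Granule proteins are made in the bone marrow while granulocytes mature and are then stored. Azurophil granule genes are transcribed mainly at the promyelocyte stage, and specific granule genes at the later myelocyte and metamyelocyte stages. Their mRNA in a marrow culture is therefore known as a mark of precursors, while M-CSF drives the culture toward macrophages. Calprotectin is also made by monocytes, and Lcn2 also by stimulated macrophages.

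Values are log2 expression after RMA, a method that corrects background, gives all arrays a common distribution and summarises probes. The median of an array was 4.87 to 4.95, and across probe sets any pair of arrays correlated at 0.989 to 0.996. Of 13 measured macrophage markers the median level was 11.5, among them Adgre1, the surface marker F4/80, at 11.43. As a rough mark of background, 24 endothelial and lymphocyte genes had a median of 3.88 and a 90th percentile of 6.12, and the mean of 6 of the 10 granule genes lay under that percentile. Probe sets differ in brightness, so levels are compared between arrays and not between genes. The arrays are of bulk RNA, in which fewer cells of a type and less RNA per cell cannot be told apart. The 2 arrays numbered 1 stood apart from the other 6, and results that rest on them are given with and without them.

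Of the azurophil granule genes, Mpo (Entrez gene 17523) encodes myeloperoxidase, which makes hypochlorous acid from hydrogen peroxide. It stood at 4.48, 7.31, 7.07 and 6.52 on Hepcidin arrays 1 to 4, against 5.07, 7.25, 7.12 and 6.51 on PBS arrays 1 to 4. Both arrays numbered 1 were low, the groups overlapped, and from number 2 to number 4 the 2 arrays of a number lay within 0.06 of each other. Elane (50701), the gene of neutrophil elastase, stood at 4.77, 7.06, 7.06 and 6.37 with hepcidin and at 4.88, 6.95, 7.06 and 6.25 with PBS. It was again low on both arrays numbered 1 and next lowest on both numbered 4. Prtn3 (19152), the gene of proteinase 3, lies next to Elane on chromosome 10 with no protein-coding gene between them in the RefSeq table. It stood at 4.91, 6.88, 6.44 and 5.74 with hepcidin and at 5.22, 6.97, 6.29 and 5.66 with PBS. Its values fell into the same order of numbers in both groups, with number 2 highest, then 3, 4 and 1. Ctsg (13035), the gene of cathepsin G, stood at 4.23, 5.03, 4.78 and 4.43 with hepcidin and at 4.28, 5.12, 5.00 and 4.40 with PBS. It kept the same order at a level within the range of the background genes, where RMA compresses differences.

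The 250 bases before and 50 after the start of the 4 azurophil granule genes (RefSeq, GRCm38.p6) are shown because these genes moved together across the arrays and each of these windows holds the letters AGGAAGT, the core of a site for PU.1 and other ETS factors. The windows are chr11:87793534-87793833 (plus strand) for Mpo, chr10:79886062-79886361 (plus) for Elane, chr10:79879417-79879716 (plus) for Prtn3 and chr14:56102525-56102824 (minus) for Ctsg, each read 5′ to 3′ along the gene's strand. Capitals mark AGGAAGT and, in Elane and Prtn3, CAACGG, a core of MYB sites.
Mpo: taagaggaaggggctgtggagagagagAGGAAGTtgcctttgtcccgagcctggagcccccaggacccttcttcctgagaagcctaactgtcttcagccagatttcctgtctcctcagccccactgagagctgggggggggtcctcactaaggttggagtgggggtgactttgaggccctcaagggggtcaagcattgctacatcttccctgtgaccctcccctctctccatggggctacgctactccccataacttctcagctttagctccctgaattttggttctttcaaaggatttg
Elane: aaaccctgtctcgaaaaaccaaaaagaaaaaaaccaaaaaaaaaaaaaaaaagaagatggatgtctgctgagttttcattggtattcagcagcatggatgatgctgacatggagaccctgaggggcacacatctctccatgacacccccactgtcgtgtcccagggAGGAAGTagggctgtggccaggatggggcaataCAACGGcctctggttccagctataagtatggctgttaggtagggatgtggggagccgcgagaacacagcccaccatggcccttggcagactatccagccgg
Prtn3: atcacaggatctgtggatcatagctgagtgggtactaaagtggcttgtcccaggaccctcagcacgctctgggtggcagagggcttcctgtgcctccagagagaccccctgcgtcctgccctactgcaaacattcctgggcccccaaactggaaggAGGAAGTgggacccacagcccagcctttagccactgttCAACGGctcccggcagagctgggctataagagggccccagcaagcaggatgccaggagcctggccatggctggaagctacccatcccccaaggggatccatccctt
Ctsg: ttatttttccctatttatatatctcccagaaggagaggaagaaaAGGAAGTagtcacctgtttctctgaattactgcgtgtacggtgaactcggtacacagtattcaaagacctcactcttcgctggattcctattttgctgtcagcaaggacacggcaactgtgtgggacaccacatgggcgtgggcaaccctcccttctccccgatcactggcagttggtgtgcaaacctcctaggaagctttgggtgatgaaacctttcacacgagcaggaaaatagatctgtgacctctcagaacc
AGGAAGT or its reverse complement ACTTCCT occurs in 4 of 4 azurophil windows, in 5 of the 10 granule genes (S100a8 is the other one) and in 9.35% of 32851 promoter windows of the same length. CAACGG or CCGTTG occurs in 2 of the 10, Elane and Prtn3, and in 5.12% of all windows. In Elane and Prtn3 the first bases of the ETS match lie at -84 and -94 and those of the MYB match at -51 and -56 relative to the gene's start. The matches do not overlap. The motifs were chosen after these sequences had been seen, and a match is a description of letters, not a bound site. Ngp, Ltf, Lcn2 and S100a9 were also low on both arrays numbered 1, and their windows hold neither AGGAAGT nor ACTTCCT. Whether these letters bear on the values was not tested.

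Of the specific granule genes, Ngp (18054) encodes neutrophilic granule protein, a relative of the cathelicidins. It stood at 4.54, 7.95, 8.20 and 7.69 on Hepcidin arrays 1 to 4, against 4.62, 8.12, 8.03 and 7.38 on PBS arrays 1 to 4. Both arrays numbered 1 lay at or below 4.62, and the other 6 at or above 7.38. Ltf (17002), the gene of the iron-binding protein lactoferrin, stood at 4.21, 5.19, 5.63 and 5.09 with hepcidin and at 4.31, 5.42, 5.81 and 5.11 with PBS. Number 1 was lowest and number 3 highest in both groups. Lcn2 (16819), the gene of a lipocalin that binds bacterial iron carriers, stood at 9.17, 9.93, 10.02 and 9.86 with hepcidin and at 9.15, 9.91, 9.86 and 9.70 with PBS. It was low on both arrays numbered 1 by less than 1 log2 unit and nearly level on the other 6. Camp (12796), the gene of the cathelicidin antimicrobial peptide, stood at 3.46, 3.69, 3.69 and 3.27 with hepcidin and at 3.64, 3.53, 3.31 and 3.54 with PBS. These values lay below the median of the background genes and followed no number, so Camp was the 1 of the 10 genes that the arrays numbered 1 did not set apart.

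Ngp and Camp lie on the same chromosome, 9, with 8 protein-coding genes between them in the RefSeq table. Their promoter windows are shown because they had the widest and the narrowest range over the 8 arrays, 3.66 and 0.43 log2 units. The range of Camp was near the median of 0.45 over all genes and was read at background level. It therefore does not show that the level of Camp was steady. The windows are chr9:110419558-110419857 (plus strand) for Ngp and chr9:109849407-109849706 (minus) for Camp (GRCm38.p6), and capitals mark matches to TTNNGCAA or its reverse complement TTGCNNAA, a form of the C/EBP site.
Ngp: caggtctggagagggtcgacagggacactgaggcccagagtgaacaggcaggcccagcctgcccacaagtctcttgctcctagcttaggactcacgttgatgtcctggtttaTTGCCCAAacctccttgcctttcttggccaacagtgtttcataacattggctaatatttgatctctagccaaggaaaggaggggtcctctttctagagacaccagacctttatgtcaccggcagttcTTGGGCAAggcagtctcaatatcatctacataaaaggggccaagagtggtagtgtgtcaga
Camp: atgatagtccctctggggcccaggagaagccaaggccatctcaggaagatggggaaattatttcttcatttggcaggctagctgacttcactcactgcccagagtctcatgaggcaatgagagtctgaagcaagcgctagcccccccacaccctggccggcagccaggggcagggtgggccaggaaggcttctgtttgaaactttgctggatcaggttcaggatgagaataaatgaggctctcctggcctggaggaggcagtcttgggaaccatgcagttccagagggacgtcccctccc
The C/EBP letters occur in 4 of the 10 genes, Ngp, Ltf, Lcn2 and S100a9, in 0 of 4 azurophil windows, and in 10.8% of all windows. TATAAA or TTTATA, letters found in TATA boxes, occurs in 3 of the 10 and in 13.62% of all windows. Its first base lies at -30 in S100a8, where a TATA box is usually found, but at 1 in S100a9 and, on the opposite strand, at -237 in Ctsg. The Camp window holds none of the 4 motifs searched, which says only that these letters are not in this window.

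S100a8 (20201) and S100a9 (20202), neighbours on chromosome 3 with no protein-coding gene between them in the RefSeq table, encode the calcium-binding subunits of calprotectin, which withholds zinc and manganese from microbes. S100a8 stood at 5.01, 6.23, 5.94 and 5.66 with hepcidin and at 4.61, 6.42, 6.07 and 5.81 with PBS. S100a9 stood at 4.10, 5.59, 5.86 and 5.45 with hepcidin and at 4.70, 5.80, 5.79 and 5.51 with PBS. Both genes were lowest on the arrays numbered 1, and there the treated array was the higher one for S100a8 (by 0.41) and the lower one for S100a9 (a difference of -0.60).

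**Figure D1:**
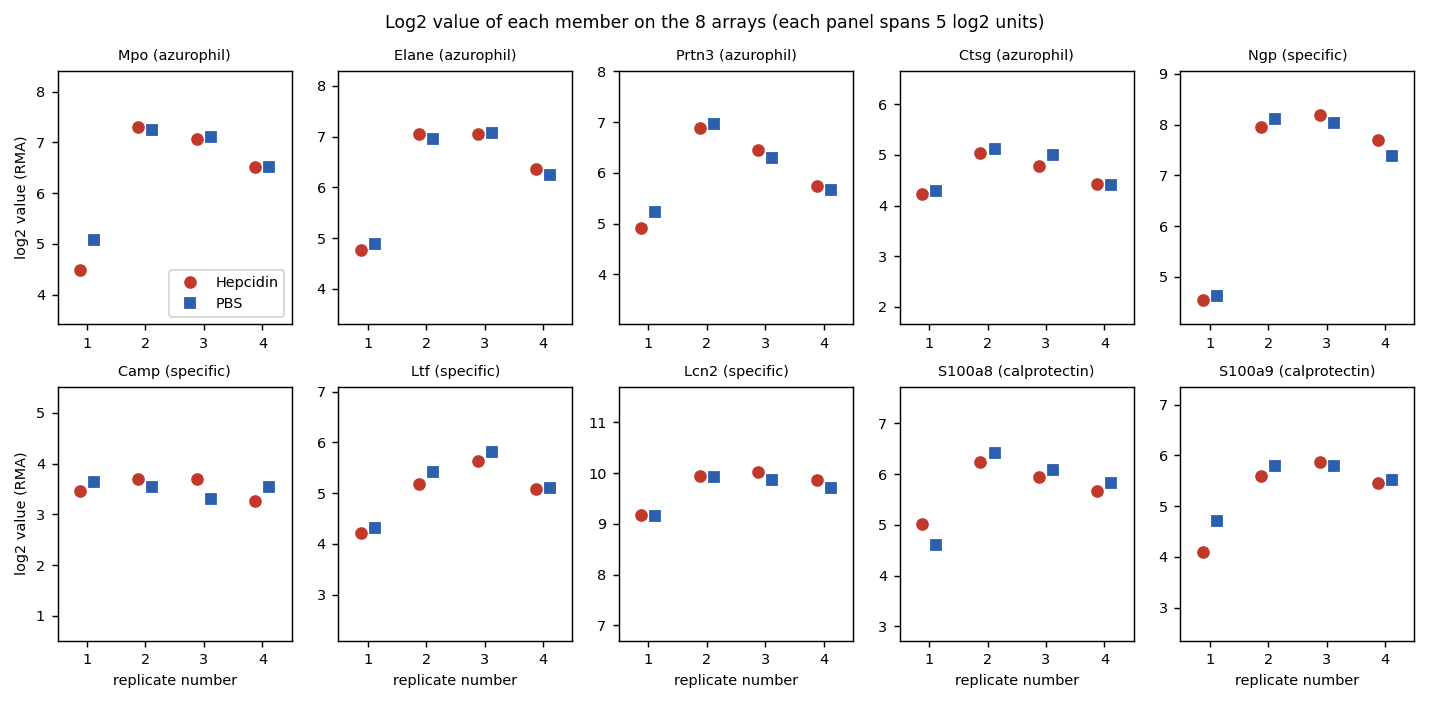
Log2 value (vertical) of each of the 10 genes on the arrays numbered 1 to 4 (horizontal), with Hepcidin as circles left of PBS as squares and each point 1 array. For most genes the values follow the number more than the treatment, though the pair numbered 1 differs by -0.60 for S100a9 and -0.59 for Mpo and Camp follows no number. Both arrays numbered 1 are lowest for 9 genes and not for Camp.

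The arrays differed by number far more than by treatment for 9 of the 10 genes. The share of a gene's variance over the 8 arrays that lay between numbers was 92.5% to 99.7% for these 9 and 25.5% for Camp, against a median of 55.7% over all genes. The share between treatments was 0.020% to 2.94% for the 10, against a median of 5.12% over all genes. A split into 4 numbers takes up more variance than a split into 2 treatments even without an effect, so each share is read beside its own median. The genes were chosen with the low arrays numbered 1 in view, which enlarges their total variance. A high share between numbers and a low one between treatments follow in part from that choice. Over the 6 arrays numbered 2 to 4 alone the share between numbers was lower for some genes, at 54.8% for Lcn2, 82.1% for S100a9 and 83.6% for Ngp, and 89.9% to 99.6% for the other 6, against 26.8% for Camp and a median of 50.3% over all genes. The size of the Hepcidin minus PBS difference within a number had a median of 0.14 over the 10 genes and 4 numbers, against 0.12 over all genes, and was at most 0.60, for S100a9 on number 1. The range over the 8 arrays was 0.88 to 3.66 for the 9 genes, against a median of 0.45 over all genes, and over the 6 arrays numbered 2 to 4 it was 0.32 to 1.31, against 0.35. Taking the number into limma's fit as a block lowered the residual SD of Ngp to 0.16 from 1.68, of Elane to 0.08 from 1.04 and of Mpo to 0.21 from 1.15, while that of Camp was 0.22 with the block and 0.18 without it. Without the arrays numbered 1 the block made less difference to Ngp, with a residual SD of 0.17 with it and 0.34 without it, and the SD was 0.05 and 0.42 for Elane and 0.04 and 0.40 for Mpo.

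On the arrays numbered 1 both values lay below all 6 other arrays for 9 of the 10 genes, which was so for 10.1% of all genes. Since these low values were known when the genes were chosen, the counts are given without a test. Ngp was lower on number 1 by a difference of -3.41 among Hepcidin arrays and -3.22 among PBS arrays (number 1 minus the mean of numbers 2 to 4), a mean 9.95-fold lower level, the lowest difference of all 24011 genes. The mean of the 2 differences was -2.19 for Mpo and -1.96 for Elane, places 9 and 13 from the lowest. It was -1.27 for S100a9, -1.26 for Prtn3, -1.21 for S100a8 and -1.11 for Ltf, places 60, 61, 69 and 84. Lcn2 had -0.72 (place 292), Ctsg -0.54 (place 608) and Camp 0.04 (place 14099). In all, 7 of the 10 genes were lower by at least 1 log2 unit, against 119 genes or 0.496% of all genes. Except for Lcn2, the values on number 1 lay under 6.12, the 90th percentile of the background genes, where RMA compresses differences. The fold, the differences and the places may therefore also reflect a gene's level on the other 6 arrays. They do not rank the genes by how far their mRNA fell.

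**Figure D2:**
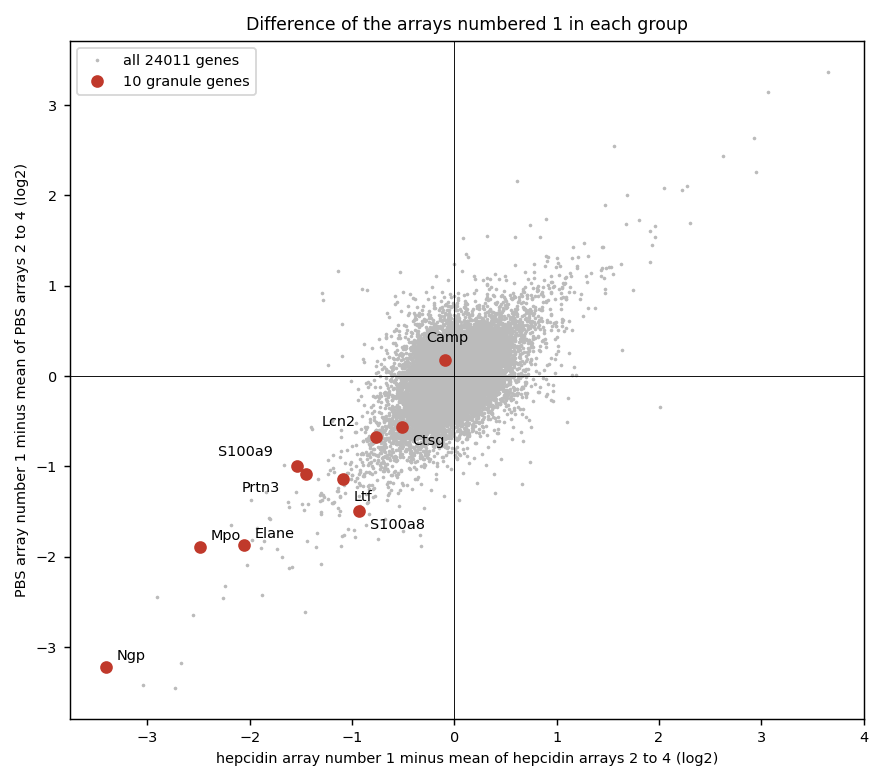
Value on array number 1 minus the mean of numbers 2 to 4 among Hepcidin arrays (horizontal, log2) and among PBS arrays (vertical, log2), for all 24011 genes (grey) and the 10 granule genes (red). Ngp lies at -3.41 and -3.22, Mpo and Elane near -2, and Camp near 0.

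The genes also differed among themselves on the other 6 arrays. The mean of the 2 arrays of number 2 exceeded that of number 4 by 1.23 for Prtn3, 0.76 for Mpo, 0.70 for Elane and 0.66 for Ctsg, by 0.58 for S100a8 and 0.50 for Ngp, and by 0.15 to 0.21 for Lcn2, Ltf, S100a9 and Camp. For the 4 azurophil genes each of these differences was larger than any difference between the 2 arrays of number 2, 3 or 4, which reached 0.22 (in size) for Ctsg. Number 3 minus number 2 was -0.56 for Prtn3 and 0.42 for Ltf. Whether the 2 kinds of granule gene differ in this gradient was not tested.

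The comparison of hepcidin with PBS asked whether 1 h of the peptide changed these genes. In limma without a block, 0 of the 10 genes passed an adjusted p of 0.05, as did 0.0% of the 24011 genes tested (0 genes), and 0 of the 10 had an unadjusted p below 0.05, against 2.86% of all genes. The groups overlapped for 10 of 10, while 1.88% of all genes had groups that did not. The median log2 change of the 10 was -0.03, against 0.00 over all genes, with 6 of 10 below 0, as were 49.6% of all genes. With the number as a block, again 0 of the 10 passed, against 0.00416% of all genes (1 gene), and 0 with the number as a random block, against 0.0208% (5 genes).

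The changes ran from -0.20 for S100a9 to 0.09 for Lcn2. S100a9 averaged 5.25 ± 0.79 with hepcidin and 5.45 ± 0.52 with PBS (log2, SD, n = 4 each), a change of -0.20 with a 95% interval from -1.03 to 0.63 in limma and from -0.46 to 0.06 with the block. Its difference of -0.60 on number 1 was the largest in size, and without both arrays of that number the change was -0.07. Mpo averaged 6.34 ± 1.29 with hepcidin and 6.48 ± 1.00 with PBS, a change of -0.14 (interval -1.56 to 1.27, with the block -0.41 to 0.13). Its difference on number 1 was -0.59, and without both arrays of that number the change was 0.01. Ltf was lower with hepcidin in 4 of 4 same-numbered pairs, which 5.92% of all genes were, by differences of -0.02 to -0.23. It averaged 5.03 ± 0.59 with hepcidin and 5.16 ± 0.64 with PBS, a change of -0.13 (interval -0.90 to 0.63, with the block -0.30 to 0.04).

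Lcn2 was higher with hepcidin in 4 of 4 pairs, which 5.69% of all genes were, by 0.02 to 0.16. It averaged 9.75 ± 0.39 with hepcidin and 9.65 ± 0.35 with PBS, a change of 0.09 (interval -0.38 to 0.57, with the block -0.07 to 0.26). Ngp averaged 7.09 ± 1.72 with hepcidin and 7.04 ± 1.64 with PBS, a change of 0.06 whose SE of 0.92 in limma narrowed to 0.10 with the block (interval -0.17 to 0.28). The other changes were 0.03 for Elane, 0.02 for Camp, -0.02 for S100a8, -0.04 for Prtn3 and -0.08 for Ctsg. With the block, the intervals of the 10 genes together ran from -0.46 to 0.30. A miss of the threshold does not show that the levels were equal.

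These changes depended on whether both arrays numbered 1 were present. Both were low for 9 of the 10 genes, so leaving out only 1 of them shifts the changes of these genes by arithmetic. The shift is upward without the Hepcidin array and downward without the PBS array, and the counts of signs are no result about hepcidin. Without the Hepcidin array of that number all 10 changes were above 0, with a median of 0.25 and up to 0.91 for Ngp. Without the PBS array of that number 9 of 10 were below 0, with a median of -0.40 and down to -0.75 for Ngp. Without both, 6 were above and 4 below 0, with a median of 0.03 and changes between -0.16 (S100a8) and 0.11 (Lcn2), and 0 of 10 passed with or without the block, as did 0.00416% of all genes (1 gene) with it and 0.0% without it.

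**Figure D3:**
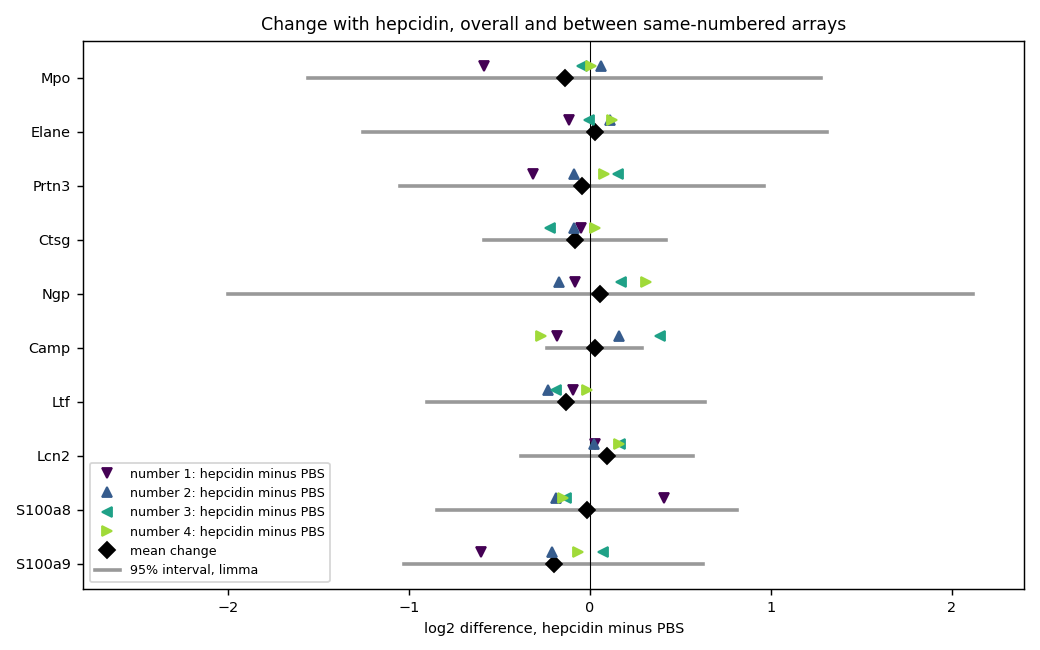
Log2 difference, hepcidin minus PBS (horizontal), for each of the 10 genes: the mean change (diamond), its 95% interval in limma without a block (grey line) and the difference within each number (triangles). The triangles lie between -0.60 and 0.41 and inside the intervals of most genes, such as that of Mpo, -1.56 to 1.27. These intervals are wide because they hold the spread between numbers, which cancels within a number. With the block, not drawn here, the interval of Mpo was -0.41 to 0.13, and its difference of -0.59 on number 1 lay outside it.

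Other genes of granules and neutrophils, from a list of 33 measured genes, had both arrays numbered 1 below all others for 9 of 33, with a median difference of -0.11, against 0.01 over all genes. Their median level was 4.56 and the mean of 22 lay under the 90th percentile of the background genes, where a low value may not be seen. Of the 11 brighter genes, 4 were below all others on number 1, with a median difference of -0.27. Mmp8, the gene of neutrophil collagenase, had a difference of -1.29 but was nearly as low on number 3. It stood at 8.05, 9.35, 8.08 and 10.25 on Hepcidin arrays 1 to 4 and at 7.84, 9.45, 8.19 and 10.04 on PBS arrays 1 to 4. Serpinb1a, which encodes an inhibitor of elastase, cathepsin G and proteinase 3, was higher on number 1 by 0.58, Mgst1 by 0.53 and Orm1, at a level near background, by 0.50. Genes of mature neutrophils had a median difference of -0.04 (8 measured), with Clec4e, a C-type lectin receptor that macrophages also express, higher by 1.13. The mean of 4 of these 8 lay under the same percentile, and the 4 brighter ones had a median difference of 0.27. With hepcidin, 0 of the 33 and 0 of the 8 passed in limma, and 0 of either list had an unadjusted p below 0.05. With the number as a block 0 passed again, and the unadjusted p was below 0.05 for 2 of the 33 and 1 of the 8, against 4.91% of all genes. Orm1 and Retnlg, both at background level, were lower with hepcidin in 4 of 4 pairs, by changes of -0.23 ± 0.09 and -0.18 ± 0.07 (SE, adjusted p 0.98 and 0.99 in limma with the block). Clec4e was higher by 0.32 ± 0.08 (adjusted p 0.78).

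Granulocyte transcription factors and the G-CSF receptor gene went both ways on number 1, with a median difference of 0.03 over 14 genes and 1 gene below all other arrays. Cebpe, which drives specific granule genes, stood between 4.26 and 4.80 on Hepcidin arrays and between 4.56 and 4.80 on PBS arrays. Klf4, a factor of monocyte differentiation, was higher on number 1 by 0.92, and Irf8, which favours monocytes over granulocytes, was lower, at -0.55. Progenitor genes had a median of 0.07 (9 measured). The mean of 7 of the 9 lay under the 90th percentile of the background genes, and the 2 brighter ones had a median of 0.34. Of the progenitor genes, Cd34 had a difference of -0.89 and was low on number 3 too, and Myb had -0.29. With hepcidin 0 of 14 and 0 of 9 passed in limma, and 1 gene of each had an unadjusted p below 0.05, against 2.86% of all genes. The smallest was that of Cebpb, a factor induced in stimulated macrophages, at 0.34 ± 0.13 (SE, adjusted p 1.00 in limma).

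Some monocyte, macrophage and cell cycle genes were low on the arrays numbered 1 too. Of 11 measured monocyte genes, 6 were below all other arrays there and 5 were not, and the list's median difference was -0.19. Of the 7 at or above the 90th percentile of the background genes, 5 were below all others. The median of these brighter genes was -1.29, against -2.08 for the 4 granule genes above that percentile. The values named next are the 4 largest in size of the whole list. Ccr2, the chemokine receptor gene of inflammatory monocytes, had a difference of -3.09 and stood at 5.98, 8.50, 8.63 and 8.996 on Hepcidin arrays 1 to 4, against 5.35, 8.68, 8.71 and 9.01 on PBS arrays 1 to 4. F13a1 and Cx3cr1 had -1.54 each and Ly6c2 -1.29. The mean level of the list lay between 6.62 and 7.44 on Hepcidin arrays and between 6.53 and 7.48 on PBS arrays, lowest on number 1 in both.

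Of 13 macrophage markers, 8 were below all other arrays on number 1, and the list's mean lay between 10.98 and 11.55 on Hepcidin arrays and between 10.82 and 11.57 on PBS arrays. The Fc receptor gene Fcgr1 had a difference of -1.87, and the complement genes C1qa, C1qc and C1qb had -1.85, -1.41 and -1.02, whereas Adgre1 had -0.12. Of 15 cell cycle genes, 8 were below all others there, with a median of -0.58, a list mean of 9.34 to 10.06 on Hepcidin arrays and 9.36 to 10.03 on PBS arrays, and low values on number 4 as well (9.57 and 9.56). The kinase gene Aurkb had -0.85 and the replication gene Mcm5 -0.81. What part differences in these cells or in growth had in the granule gene values was not tested.

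Most markers of other marrow cells lay under the 90th percentile of the background genes, where a low value may not be seen. This was so for 10 of 10 eosinophil, basophil and mast cell markers, 7 of 7 erythroid, 7 of 8 dendritic and 8 of 8 stromal markers. The 1 brighter dendritic marker had a difference of -0.61 on number 1. These lists therefore do not show whether such cells differed between arrays. The median difference on number 1 was -0.01 for 10 eosinophil, basophil and mast cell markers, of which Ccr3 alone was below all others (-1.42), 0.14 for 7 erythroid markers, -0.02 for 8 dendritic and -0.03 for 8 stromal markers. For the 5 measured S100 genes beside the calprotectin pair it was -0.33, with S100a4 at -0.56 and S100a6 at -0.21. It was -0.01, 0.06 and 0.04 for the B cell, T and NK cell and endothelial genes that served as background (7, 9 and 8 measured) and 0.04 for 4 protease inhibitors and haem peroxidases. With hepcidin 0 genes of any of the 16 lists passed in limma, with or without the block. Of their 160 distinct genes, 3 had an unadjusted p below 0.05 without the block, against 2.86% of all genes. With the block 7 did, against 4.91% of all genes.

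**Figure D4:**
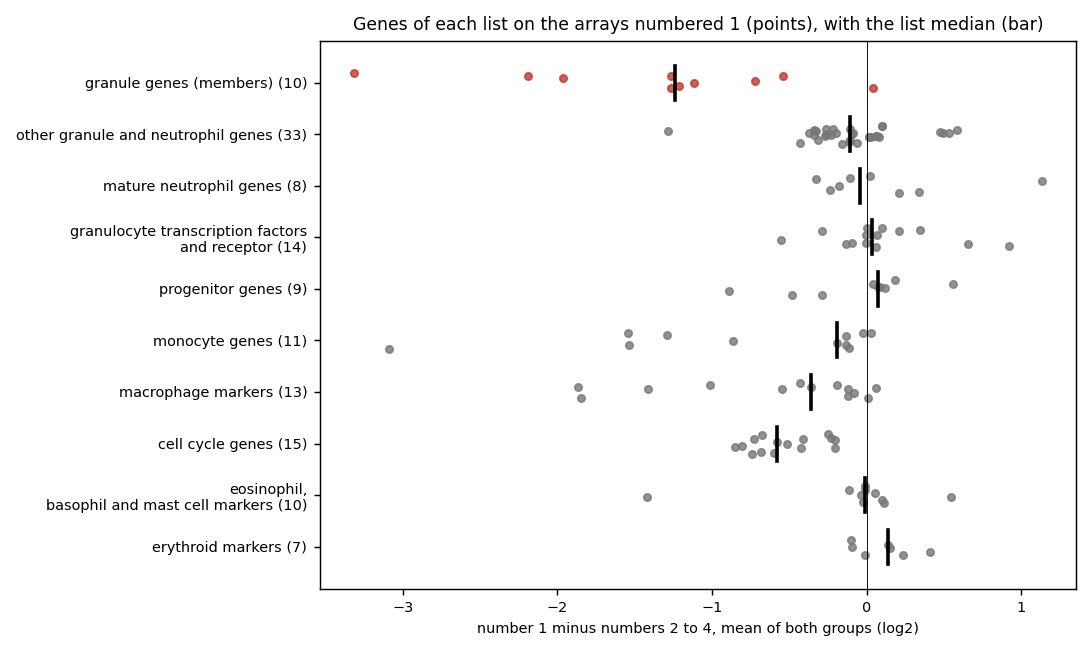
Difference on the arrays numbered 1 (number 1 minus numbers 2 to 4, mean of both groups, log2, horizontal) of each gene in 10 of the lists, with the list median as a bar and the number of genes in brackets. The granule genes have a median of -1.24, cell cycle genes -0.58, macrophage markers -0.36, monocyte genes -0.19 and the other granule and neutrophil genes -0.11. The 7 brighter monocyte genes have a median of -1.29, the 4 brighter mature neutrophil genes 0.27 and the 2 brighter progenitor genes 0.34.

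Genes with the most similar pattern were ranked by Pearson's r over the 8 arrays with the mean of the 10 granule genes, among 629 genes with a mean of at least 6 and a range of at least 1. The 10 highest with an established gene symbol had r between 0.97 and 0.99, and since the arrays numbered 1 stand apart, r is mostly a measure of the gap to them. On the 6 arrays numbered 2 to 4 the same genes had r between 0.70 and 0.96. They were Chn2, Kctd12, Fads2, Dck, Scd2, Fnbp1l, F13a1, Rab3il1, Gmnn and Lrrc32; 1 predicted gene that also ranked above the last of them is passed over. Their differences on number 1 ran from -2.68 for the fatty acid desaturase gene Fads2 to -0.81 for Gmnn, the gene of the replication inhibitor geminin. Fads2 stood at 5.36, 8.54, 8.88 and 7.38 on Hepcidin arrays 1 to 4, against 5.81, 8.43, 8.87 and 7.45 on PBS arrays 1 to 4, with the same order of numbers in both groups.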

How the data were processed

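Total RNA of the 8 samples was labelled with biotin for Affymetrix whole-transcript arrays, per the labels' protocols. The deposited log2 values were made by the authors with RMA in affy 1.36.1, per the submitters' processing notes; how probe sets were defined, and on which genome build, is not given in the sources used here. RMA gives all arrays 1 distribution and compresses differences of dim genes. Of 24973 probe sets, 24015 had 1 gene symbol in the platform annotation, each numbered by its Entrez gene, none had several and 958 had none. The brightest was kept for 4 symbols, which left 24011 genes, and dim genes were kept.

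Groups and numbers came from the titles. Hepcidin was compared with PBS in limma 3.58.1 (R 4.3.3, lmFit and eBayes), two-sided, with Benjamini-Hochberg adjustment over all genes. Log2 changes are hepcidin minus PBS. Each array's deviations from its group mean, taken across genes, correlated with those of its same-numbered partner at 0.344 to 0.548 and with other arrays of the opposite group at -0.356 to 0.124. The lowest same-number value, 0.344, lay above the highest of the others, 0.124, so by the titles and this check the numbers pair the arrays. The bound of 0.1 set for the check does not separate them by itself, since 0.124 exceeds it too. Deviations within a group sum to 0, so positive same-number values lower the others by construction. The fit was also run on simulated data. These held no effect of number, or with the block a smaller one than most of the granule genes showed. They therefore do not show how the fit treats such gaps.

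The 10 genes, the 16 other lists and the design were chosen with earlier results of these data known. From each list the text may name genes that passed, or the 2 with the smallest unadjusted p, and the 4 with the largest difference on number 1, plus the 10 genes most like the granule genes over the arrays. Promoters are from RefSeq windows (GRCm38.p6), which held all 10 genes. Alternatives were other normalizations, filters, variance settings, array weights, the replicate block and leaving out arrays. Figures used matplotlib 3.10.9 in Python 3.11.15.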

Additional observations from a re-analysis of the deposited data

Results flagged for a closer look

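A gap test for single values (Dixon's 95% limit) was applied to the 4 arrays of each group for 46 genes named here, the 10 granule genes among them, 92 groups in all. Chance gives such a gap in about 1 of 20 groups, and 14 were found, 13 of them on an array numbered 1; many of the other genes were named for their large difference on number 1, and genes that move together are not independent, so neither count is a test. Among the granule genes there was 1, Ngp on the Hepcidin array numbered 1, at 4.54, against 7.69 to 8.20 on the other 3 Hepcidin arrays. The PBS array of that number was as low for Ngp (4.62), without passing the ratio.

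The other low values on number 1 were those of Ccr2 at 5.98 with hepcidin and 5.35 with PBS, Ly6c2 at 7.14 with hepcidin, C1qa at 8.73, C1qc at 10.03 and C1qb at 11.54 with hepcidin, C1qb at 11.63 with PBS, Mcm5 at 8.81 with PBS and S100a4 at 10.82 with PBS. High values on number 1 were those of Clec4e at 11.77 and Mgst1 at 9.62 with hepcidin and of Orm1 at 5.07 with PBS. The value on another number was Mmp9, the gelatinase B gene, at 7.00 on the Hepcidin array numbered 4, against 6.32 to 6.39 on the other 3; its PBS array of that number was also the highest, at 6.97.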

How the results depend on the processing

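In 26 other settings 0 of the granule genes that were tested passed an adjusted p of 0.05 in limma, and the smallest adjusted p of any of them was 0.907. Over all genes the count was 1 with the replicate block, 5 with the number as a random block and 3 among genes with a mean of at least 6, against 0; leaving out arrays, singly or both of a number, gave 0 to 2. The direction of S100a8 turned to 0.0079 after quantile normalization, and with array weights Elane turned to -0.023 and Ngp to -0.044. With arrays left out, the median change of the 10 genes ran from -0.40 to 0.25, and the changes of single genes from -0.75 to 0.91 for Ngp, -0.61 to 0.48 for Mpo, -0.44 to 0.54 for Elane, -0.34 to 0.32 for Prtn3, -0.22 to 0.057 for Ctsg, -0.096 to 0.12 for Camp, -0.42 to 0.14 for Ltf, -0.39 to 0.22 for S100a8, -0.45 to 0.18 for S100a9 and -0.077 to 0.28 for Lcn2. For Ngp, Mpo, Elane, Ltf, S100a8, S100a9 and Lcn2 both ends came from leaving out 1 of the 2 arrays numbered 1, which leaves the other without its partner. Leaving out both arrays of a number, in the fit with the replicate block, turned Mpo to 0.0078 and Prtn3 to 0.047 (without number 1), Camp to -0.021 and S100a8 to 0.040 (without 2), Camp to -0.096 and S100a8 to 0.023 (without 3), and Elane to -0.0027, Ngp to -0.027 and S100a8 to 0.028 (without 4). With the replicate block and all 8 arrays the changes are the same and no call on the 10 genes moved. The differences on number 1 moved by less than the spread of the other 6 arrays under 3 other normalizations and, an alternative chosen after seeing the data, without number 2, 3 or 4. The number of arrays limits the precision. Without the block the SE in limma was smaller for the dim genes Camp (0.12) and Ctsg (0.22) than for Ngp (0.92). At the level of Camp and Ctsg a change may be compressed, so a small SE there does not show a well measured one.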
